A study of Homo sapiens with 8 samples.

Results

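The transcription factors ZEB1, ZEB2, SNAI1, SNAI2, TWIST1 and TWIST2, and the epithelial factors GRHL2, OVOL1 and ESRP1, were examined in RNA-seq libraries of the clear cell renal cell carcinoma (ccRCC) cell lines A498 and 786-O. The 9 genes were chosen by name, as drivers of epithelial-mesenchymal transition (EMT) and their epithelial opponents, out of 18693 genes with protein-coding (NM) RefSeq entries in the deposited files. Of the 9 genes, 4 reached a mean of 0.1 FPKM (fragments per kilobase of transcript and per unit of sequencing depth) over the libraries and were tested across genes, as were 13161 genes in all. The other 5 were at or near 0 and are given by their values.

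The study knocked down SLINKY, a long non-coding RNA, to ask which genes respond to its loss. There were 8 libraries in 4 groups: for each cell line, 2 libraries with non-targeting control siRNA (NTC), and 2 SLINKY knockdown (KD) libraries, 1 with siRNA #1 and 1 with siRNA #2. Cells were transfected at 50 nM for 16 h by the labels (the methods of the study give a later time for the RNA). A498 cells were grown in DMEM and 786-O cells in RPMI-1640, so that the cell line and its medium cannot be told apart. Each is a single established line, and nothing in the labels says that libraries came from separate cultures, so that p-values measure the spread between these libraries, which may be technical.

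SLINKY measured 14.6 and 16.1 FPKM in the A498 NTC libraries, and fell to 1.64 with siRNA #1 and 3.01 with siRNA #2. In 786-O it measured 1.45 and 1.39 FPKM in the NTC libraries, 0.0569 with siRNA #1 and 0.594 with siRNA #2. The depth estimated from the FPKM of genes without introns was 25135373 to 53132811 reads in A498 and 36336476 to 64706900 reads in 786-O. The renal lineage factor PAX8 was at 39.2 to 48.1 FPKM and the simple-epithelium keratin KRT8 at 444 to 692 FPKM in all libraries. The leukocyte markers PTPRC and CD3E were at 0 throughout, and the endothelial markers PECAM1, CDH5, VWF and KDR did not exceed 0.0385 FPKM. CA9, a hypoxia-inducible carbonic anhydrase used as a marker of ccRCC, did not exceed 0.559 FPKM in any library.

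In EMT, epithelial cells lose their junctions and polarity and take on a migratory, mesenchymal state. ZEB1 and ZEB2 (zinc finger homeobox proteins) and SNAI1 and SNAI2 (the Snail and Slug zinc finger proteins) bind E-box motifs and repress epithelial genes such as CDH1, whereas TWIST1 and TWIST2 are basic helix-loop-helix (bHLH) proteins that bind E-boxes as dimers. GRHL2 (grainyhead-like) and OVOL1 (an OVO zinc finger protein) oppose these factors in epithelia, and ESRP1 is an RNA-binding protein that maintains epithelial splicing.

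The E-box that ZEB and SNAI proteins favor reads CAGGTG, or CACCTG on the other strand. Promoter sequences from RefSeq (GRCh38.p14) were at hand for 3 of the 9 genes, ZEB1, ZEB2 and TWIST2, and those of the ZEB genes are shown because ZEB1 and ZEB2 are both regulators of this motif and members of the family. Each line gives the 250 bases upstream of a start site, 5′ to 3′, with CAGGTG or CACCTG in capitals. The ZEB1 window is the most upstream of 7 listed starts, at chr10:31318167-31318416 on the plus strand, and the ZEB2 window lies at chr2:144520120-144520369 on the minus strand.
ZEB1: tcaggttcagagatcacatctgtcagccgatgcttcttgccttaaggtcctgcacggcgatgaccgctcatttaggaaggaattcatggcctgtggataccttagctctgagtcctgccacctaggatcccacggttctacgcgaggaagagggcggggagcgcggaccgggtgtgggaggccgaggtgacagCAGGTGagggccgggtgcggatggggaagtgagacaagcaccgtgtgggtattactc
ZEB2: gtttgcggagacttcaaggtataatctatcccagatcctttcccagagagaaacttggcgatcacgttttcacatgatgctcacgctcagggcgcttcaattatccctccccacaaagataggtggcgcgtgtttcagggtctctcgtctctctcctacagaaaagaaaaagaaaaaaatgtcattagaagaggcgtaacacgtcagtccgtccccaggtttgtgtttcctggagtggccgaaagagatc
The ZEB1 window held 1 match, starting 57 bases before the start site, and the ZEB2 window held none. Of the windows at the 6 other ZEB1 starts, 1 held 2 matches and 5 held none. The broader E-box CANNTG, which reads the same on both strands and takes in CAGGTG, was found 2 times in the ZEB1 window and 1 time in the ZEB2 window. Of 35116 promoter windows of this length, 17.5% held CAGGTG or CACCTG and 61.8% held CANNTG, so that these matches describe common letters. They are not sites that were shown to be bound.

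SNAI1 and SNAI2 were both on in each cell line, but in opposite order. SNAI1 was 3.71 times higher in A498 (95% interval 3.26 to 4.23), and SNAI2 was 2.57 times higher in 786-O (95% interval 2.31 to 2.87). By their NM entries, ZEB1 and ZEB2 were low and of similar level in both lines. TWIST1, TWIST2 and OVOL1 were at 0 in all 8 libraries.

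SNAI1, the Snail protein gene (entry NM_005985, hg19 chr20:48599513-48605420), measured 25.4 and 22.5 FPKM in the A498 NTC libraries, 20.9 with siRNA #1 and 23.1 with siRNA #2. The 786-O libraries held 6.31 and 6.13 FPKM in the NTC libraries, 5.34 with siRNA #1 and 6.70 with siRNA #2. All 4 A498 libraries lay above all 4 of 786-O. The means were 23.0 ± 1.84 FPKM in A498 and 6.12 ± 0.571 FPKM in 786-O (SD, n = 4 each). On the log2(FPKM + 0.1) scale the difference was 1.89 (SE 0.081), with an adjusted p of 1.26e-07 by limma.

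SNAI2, the Slug protein gene (entry NM_003068, hg19 chr8:49830239-49833999), measured 5.85 and 6.27 FPKM in the A498 NTC libraries, 6.20 with siRNA #1 and 5.88 with siRNA #2. The same libraries of 786-O gave 17.2 and 14.9 FPKM in the NTC libraries, 16.4 with siRNA #1 and 14.5 with siRNA #2. Again the lines did not overlap, here with all 786-O libraries higher. The means were 6.05 ± 0.213 FPKM in A498 and 15.8 ± 1.27 FPKM in 786-O (SD, n = 4 each), a log2 difference of -1.36 (SE 0.067, adjusted p = 2.98e-07 by limma).

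These calls have to be read against all genes, since the lines differed widely. Of the 13161 genes tested, 81.2% passed limma at an adjusted p of 0.05, 43.1% as higher in A498 and 38.2% as higher in 786-O, and in 76.4% the libraries of the lines did not overlap. Of the 4 tested factors, 2 (50%) passed, a lower share than that background. The absolute log2 difference of SNAI1 exceeded that of 86.6% of tested genes, and that of SNAI2 exceeded that of 79.3%, where the median gene differed by 0.57. The precision was good: the Cufflinks intervals correspond to 874 to 2027 reads for SNAI1 in A498 and 294 to 596 in 786-O, and to 282 to 593 reads for SNAI2 in A498 and 1146 to 1841 in 786-O. These read numbers came out within 0.21 of a whole number.

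**Figure D1:**
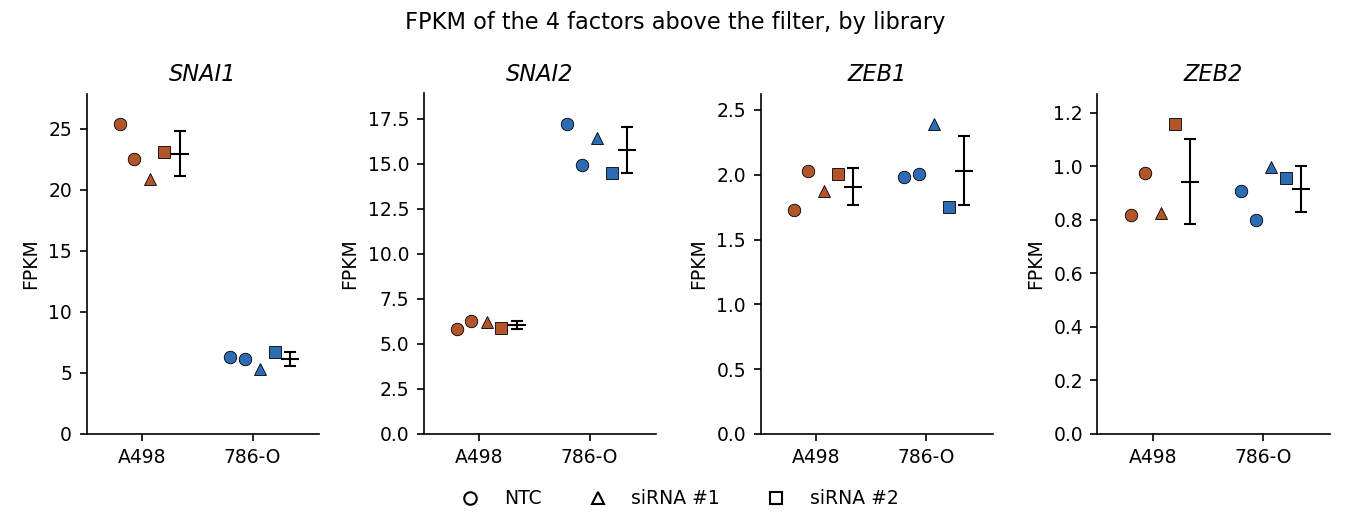
FPKM (vertical axes, starting at 0) of SNAI1, SNAI2, ZEB1 and ZEB2 in each library, with circles for NTC, triangles for siRNA #1 and squares for siRNA #2, and the mean with its SD (n = 4) beside the points. SNAI1 lies at 20.9 to 25.4 in A498 and 5.34 to 6.70 in 786-O, SNAI2 is ordered the other way, and the points of both ZEB genes overlap between the lines.

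Within a library, the ratio of SNAI1 to SNAI2 does not depend on the scaling of that library. The ratio of their FPKM was 4.33 and 3.60 in the A498 NTC libraries, 3.37 with siRNA #1 and 3.93 with siRNA #2. It was 0.367 and 0.411 in the 786-O NTC libraries, 0.325 with siRNA #1 and 0.462 with siRNA #2. SNAI1 was therefore the higher gene in each A498 library and SNAI2 in each 786-O library. The log2 ratio differed by 3.29 between the lines (two-sided exact permutation test, p = 0.0286, the smallest that 70 arrangements of 4 against 4 can give). Since both genes already separated the lines in opposite directions, this p was fixed in advance and adds no further support. The sum of both genes was 29.0 ± 1.69 FPKM in A498 and 21.9 ± 1.13 FPKM in 786-O (SD, n = 4 each). It was closer between the lines than either gene alone, since the opposite differences of the genes partly offset each other in the sum.

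ZEB1 (hg19 chr10:31608101-31818742, from the outermost ends of its 6 NM entries) measured 1.73 and 2.03 FPKM in the A498 NTC libraries, 1.87 with siRNA #1 and 2.0 with siRNA #2. In 786-O it measured 1.99 and 2.0 FPKM in the NTC libraries, 2.39 with siRNA #1 and 1.75 with siRNA #2. The lines overlapped, with means of 1.91 ± 0.140 FPKM in A498 and 2.03 ± 0.264 FPKM in 786-O (SD, n = 4 each). The log2 difference of -0.08 (SE 0.11, adjusted p = 0.496 by limma) had a 95% interval of -0.33 to 0.16. Differences beyond 1.25-fold in favor of 786-O or 1.12-fold in favor of A498 lay outside that interval.

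ZEB2 (hg19 chr2:145141942-145277958, 2 NM entries) measured 0.817 and 0.975 FPKM in the A498 NTC libraries, 0.825 with siRNA #1 and 1.16 with siRNA #2. In 786-O the values were 0.909 and 0.798 FPKM in the NTC libraries, 0.996 with siRNA #1 and 0.956 with siRNA #2. The lines overlapped here too, with means of 0.943 ± 0.160 and 0.915 ± 0.0858 FPKM (SD, n = 4 each). The log2 difference was 0.03 (SE 0.12, 95% interval -0.24 to 0.30, adjusted p = 0.812 by limma).

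For ZEB2 this result depended on which transcripts were counted. The files hold a further ZEB2 entry, NR_033258, a non-coding RefSeq transcript at the 5′ end of the gene (hg19 chr2:145268952-145277958). It measured 0.399 and 0.286 FPKM in the A498 NTC libraries, 0.366 with siRNA #1 and 0.188 with siRNA #2. The 786-O values were 1.13 and 1.01 FPKM in the NTC libraries, 1.08 with siRNA #1 and 1.14 with siRNA #2. All 4 libraries of 786-O were higher, 3.52-fold on the means (two-sided exact permutation test, unadjusted p = 0.0286, the smallest possible). With this entry added to the sum, an alternative chosen after the data were seen, ZEB2 was higher in 786-O, by -0.64 (SE 0.067) as A498 minus 786-O on the log2 scale (adjusted p = 0.000166 by limma). Over all alternatives of this comparison the adjusted p of ZEB2 ranged from 0.000166 to 0.988.

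**Figure D2:**
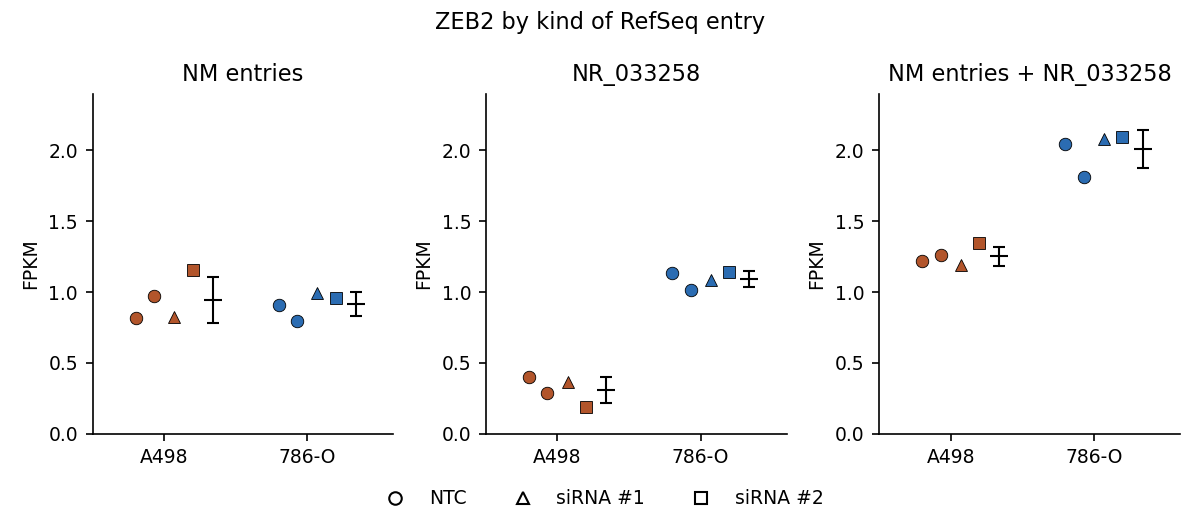
FPKM of ZEB2 (vertical axes, all 0 to 2.4) from its NM entries, from the non-coding entry NR_033258 and from their sum, in each library, with the mean and SD (n = 4). The NM entries overlap between the lines, whereas NR_033258 lies at 0.188 to 0.399 in A498 and 1.01 to 1.14 in 786-O.

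Cufflinks divided the reads of a gene among entries that overlap, and that division varied between libraries. For ZEB1, entry NM_001174095 held 29.5% (A498 with siRNA #2) to 100% of the gene and NM_001174093 most of the rest. For ZEB2, NM_001171653 held 17.5% (1 of the 786-O NTC libraries) to 100%, and NM_014795 the rest. Values of single ZEB entries are therefore uncertain, and the sums were used. With the highest entry alone in place of the sum, the ZEB1 log2 difference was -0.58 (SE 0.32), with an adjusted p of 0.146 by limma. Over all alternatives the adjusted p of ZEB1 ranged from 0.0809 to 0.855.

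Antisense genes lie beside both ZEB genes, and a kit that does not mark strand was used, so that overlapping reads of a gene and its antisense partner cannot be told apart. The ZEB1-AS1 entry NR_024284 (hg19 chr10:31605457-31608024) measured 0.700 to 1.42 FPKM in A498 and 1.03 to 1.34 FPKM in 786-O. The longer ZEB1-AS1 entry, which overlaps the start of ZEB1 (hg19 chr10:31596658-31608810), measured 1.36 to 1.88 FPKM in A498 and 1.00 to 1.94 FPKM in 786-O. Both overlapped between the lines. The ZEB2-AS1 entries did not exceed 0.263 FPKM in any library. The longer one (hg19 chr2:145275664-145279058) overlaps NR_033258, and its part in the difference of that entry was not tested.

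TWIST1 (hg19 chr7:19155091-19157295), TWIST2 and OVOL1 were at 0 FPKM in all 8 libraries. A count of 0 allows up to 3 reads, which would be 0.0325 to 0.0836 FPKM for TWIST1, 0.0476 to 0.123 FPKM for the TWIST2 entry NM_057179, 0.0664 to 0.171 FPKM for the shorter TWIST2 entry NM_001271893 and 0.0166 to 0.0428 FPKM for OVOL1, from the deepest to the shallowest library. Expression below these levels was not detectable at this depth. These limits cover counting error only.

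GRHL2 was at 0 in 7 libraries and at 0.00423 FPKM in 786-O with siRNA #2, which is about 1 read. ESRP1 measured 0.0396 and 0.0246 FPKM in the A498 NTC libraries, 0 with siRNA #1 and 0.0597 with siRNA #2. In 786-O it measured 0.00826 FPKM in 1 NTC library and 0 in the other 3. In reads, that is about 16.0 over the 4 A498 libraries and 1.07 over those of 786-O, and the lines overlapped at 0. The log2(FPKM + 0.1) means of ESRP1 differed by 0.34 (two-sided exact permutation test, unadjusted p = 0.143), and those of GRHL2 by -0.01 (p = 1).

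In order of level, A498 had SNAI1 above SNAI2, and 786-O had SNAI2 above SNAI1. By the NM entries ZEB1 followed in both lines, 2.05 ± 0.228 times ZEB2 in A498 and 2.23 ± 0.300 times in 786-O (SD, n = 4), and these neighbors did not overlap. This ratio of ZEB1 to ZEB2 was not different beyond its spread (two-sided exact permutation test, p = 0.4). With its non-coding entry added, ZEB2 measured 1.81 to 2.10 FPKM in 786-O and overlapped ZEB1 there (1.75 to 2.39 FPKM). In A498 that sum was 1.19 to 1.34 FPKM, still below ZEB1. The ratio with that entry added was not tested. ESRP1 and GRHL2 lay near 0, and TWIST1, TWIST2 and OVOL1 at 0.

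SLINKY knockdown was then compared with NTC, with the 2 siRNAs as replicates. None of the 4 tested factors passed limma over both lines, within A498 or within 786-O, nor did the knockdown effect differ between lines for any of them. The background was as low: the share of genes called was 0% over both lines, 0.0076% within A498, 0% within 786-O and 0.0076% for the difference between lines. At an unadjusted p under 0.05 limma counted 1222 genes over both lines, 793 within A498, 613 within 786-O and 328 for the difference between lines. The single gene called within A498 and in the difference between lines was the stress kinase MAPK8, named after its values were seen.

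SNAI1 was lower than both NTC libraries with siRNA #1 in A498 (20.9 against 22.5 and 25.4 FPKM) and in 786-O (5.34 against 6.13 and 6.31 FPKM). With siRNA #2 it lay between the NTC libraries in A498 and above both in 786-O. The siRNAs thus did not move SNAI1 in the same direction in 786-O. Over both lines the log2 difference was -0.09 (SE 0.081, 95% interval -0.27 to 0.10, adjusted p = 0.728 by limma).

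SNAI2 lay between the NTC libraries of its line in 3 of the 4 knockdown libraries, and below both in 786-O with siRNA #2, at 14.5 against 14.9 and 17.2 FPKM. The log2 difference over both lines was -0.03 (SE 0.067, 95% interval -0.18 to 0.13, adjusted p = 0.898 by limma). ZEB1 lay between the NTC libraries in A498 with both siRNAs, whereas in 786-O it was above both with siRNA #1 and below both with siRNA #2. Its log2 difference over both lines was 0.04 (SE 0.11, 95% interval -0.20 to 0.29, adjusted p = 0.910 by limma).

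ZEB2 was above both NTC libraries in 3 of the 4 knockdown libraries, namely A498 with siRNA #2 (1.16 FPKM) and 786-O with both siRNAs (0.996 and 0.956 FPKM). Its log2 difference over both lines was the largest of the 4, at 0.15 (SE 0.12, 95% interval -0.12 to 0.42), and did not pass limma (adjusted p = 0.693). Within the cell lines it was 0.12 in A498 and 0.18 in 786-O, and the difference of these effects was -0.06 (95% interval -0.60 to 0.49, adjusted p = 1.00 by limma).

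**Figure D3:**
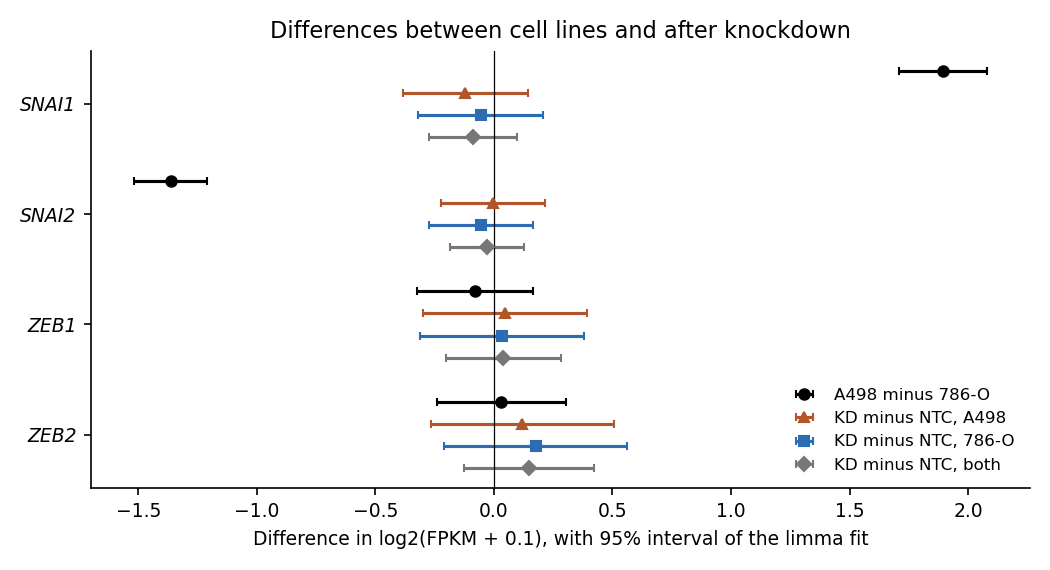
Differences in log2(FPKM + 0.1) with 95% intervals of the limma fit (horizontal axis) for SNAI1, SNAI2, ZEB1 and ZEB2, between cell lines (black circles) and for KD minus NTC within A498 (triangles), within 786-O (squares) and over both (gray diamonds). The intervals of SNAI1 (1.71 to 2.08) and SNAI2 (-1.52 to -1.21) between lines lie far from 0, and all knockdown intervals include 0.

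Over the 8 libraries, SNAI1 was followed most closely by LRRC8E and PTK2B (Pearson r of log2 values 0.999 for both), among 10502 other genes of at least 1 FPKM. SNAI2 was followed by GIT2 and GNAI3 (r = 0.998 for both), and ZEB1 by KLF3 (r = 0.946) and ITGAE (r = 0.944). For the SNAI genes these r values mostly restate which line is higher, since the 8 points form 2 clusters. The ZEB1 partners are the top of 10502 genes over only 8 libraries. Whether their r exceeds what the best of that many unrelated genes would reach was not tested.

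Genes that act with or on these factors were taken from 6 lists with 68 genes, of which 59 were tested and 52 (88.1%) passed limma between the lines, beside the 81.2% of all genes. The median log2 difference of all genes was 0.05. No gene of these lists passed limma for the knockdown, over both lines or within a line.

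Among relatives and epithelial partners, 4 of the 6 tested were higher in A498 and 2 in 786-O, with a median log2 difference of 1.82. KLF4, a zinc finger factor of differentiated epithelia, measured 14.0 ± 0.690 FPKM in A498 and 1.99 ± 0.187 in 786-O (7.05-fold). ELF3, an epithelial ETS factor, measured 14.4 ± 0.606 FPKM in A498 and 3.52 ± 0.312 in 786-O. OVOL2, the relative of OVOL1, measured 0.306 to 0.544 FPKM in A498 and was listed at 0 in all 786-O libraries. SNAI3, the third Snail gene, was at 0.187 to 0.376 FPKM in A498 and at most 0.0417 FPKM in 786-O. All 4 were higher in the line with the higher SNAI1, and GRHL1 and ESRP2, the relatives of GRHL2 and ESRP1, were the genes higher in 786-O (0.828 against 0.369 FPKM, and 0.291 against 0.0825 FPKM). GRHL3, another relative of GRHL2, stayed below the filter and was not tested. It measured 0.0918 to 0.142 FPKM in A498 and 0 to 0.0105 FPKM in 786-O. OVOL3 was not analysed here.

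Of 12 co-repressors that ZEB and SNAI proteins recruit to chromatin, 7 were higher in 786-O, 2 in A498 and 3 did not pass, with a median of -0.16. The count higher in A498 fell to 1 with the highest entry per gene. The same was seen when only the NTC or only the KD libraries were contrasted, with all libraries kept in the fit. That count also moved when single libraries were left out, namely A498 NTC 2, A498 siRNA #2, 786-O NTC 2 or either 786-O siRNA library. SUV39H1, a histone H3K9 methyltransferase, measured 5.38 ± 0.336 FPKM in A498 and 14.9 ± 0.416 in 786-O. KDM1A, the demethylase LSD1 that binds the SNAG domain of Snail proteins, measured 18.0 ± 0.377 and 44.2 ± 1.15 FPKM. The deacetylase HDAC1 was 2.24-fold and the Polycomb methyltransferase EZH2 2.25-fold higher in 786-O. Apart from these and HDAC2, the called members of the list differed by less than the median gene.

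The partners of bHLH factors and their ID inhibitors gave the most uniform list, with all 7 higher in 786-O and a median of -1.15. TCF4, an E-protein that pairs with TWIST proteins, measured 1.05 to 1.30 FPKM in 786-O and 0.00556 to 0.0305 FPKM in A498. ID2, which binds E-proteins and keeps them off DNA, measured 12.2 ± 0.776 FPKM in A498 and 46.5 ± 1.08 in 786-O. ID3, a second such inhibitor, measured 46.2 ± 3.79 and 103 ± 8.58 FPKM, and ID4 was near 0 in A498 and at 0.174 to 0.232 FPKM in 786-O. E-proteins and their inhibitors were thus both higher in 786-O, although the E-protein TCF12 differed by only 1.17-fold and overlapped between the lines. Both TWIST genes were at 0 in either line.

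Of 8 genes that set the stability of SNAI proteins, 4 were higher in A498, 2 in 786-O and 2 did not pass, with a median of 0.14. The count higher in 786-O fell to 1 when only the NTC or only the KD libraries were contrasted, with all libraries kept in the fit. It also moved when single libraries were left out, namely A498 NTC 1, A498 siRNA #1, either 786-O NTC library or 786-O siRNA #2. With the highest entry per gene, 2 were higher in A498 and 0 in 786-O. The F-box proteins FBXL5 and FBXL14, which mark Snail for degradation, were 1.59-fold and 1.52-fold higher in A498. With each siRNA, FBXL14 lay below both NTC libraries in A498 and in 786-O (1.42 and 1.35 against 2.19 and 2.28 FPKM in 786-O). Its knockdown log2 difference over both lines, -0.43, did not pass limma (adjusted p = 0.379). FBXL5 has an entry that Cufflinks marked as failed in at least 1 library. The kinases PRKD1 (1.55-fold) and GSK3B (1.19-fold), which phosphorylate Snail, were also higher in A498. The median absolute log2 difference of the 8 genes was 0.24, below the 0.57 of all tested genes. RNA does not show the protein, so that levels of SNAI1 protein were not measured.

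CDH1, encoding E-cadherin, the classical target of these repressors, was near 0 in both lines, at 0.00469 to 0.0368 FPKM in A498 and 0 to 0.00592 FPKM in 786-O, and was not tested. Of the 20 epithelial junction and splicing targets, 14 were tested, of which 7 were higher in A498, 5 in 786-O and 2 did not pass, with a median of 0.53. MUC1, a membrane mucin, measured 12.3 ± 0.542 FPKM in A498 and 0.536 ± 0.181 in 786-O (22.9-fold). DSP, the desmosomal plaque protein desmoplakin, measured 2.20 ± 0.212 FPKM in A498 and 0.0156 ± 0.00437 in 786-O. PRSS8, an epithelial membrane protease, measured 3.76 ± 0.423 and 0.109 ± 0.0670 FPKM. EPCAM, an epithelial adhesion protein, went the other way, at 0.291 ± 0.0400 FPKM in A498 and 3.97 ± 0.272 in 786-O. The epithelial targets therefore did not divide by line.

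VIM, the intermediate filament protein vimentin of mesenchymal cells, was high in both lines, at 2071 ± 35.6 FPKM in A498 and 2857 ± 133 in 786-O (log2 difference -0.46, adjusted p = 1.25e-05 by limma). All 12 tested mesenchymal genes passed, 7 as higher in A498 and 5 in 786-O, with a median of 0.78. MMP2, a gelatinase, measured 0.314 ± 0.0318 FPKM in A498 and 11.1 ± 0.854 in 786-O (35.3-fold). FN1, fibronectin of the matrix, measured 27.1 ± 1.83 and 170 ± 20.6 FPKM. POSTN, the matrix protein periostin, was higher in A498, at 1.15 to 1.78 FPKM against at most 0.0187 FPKM. CDH11, a mesenchymal cadherin, measured 2.24 ± 0.197 FPKM in A498 and 0.133 ± 0.0432 in 786-O. As with the epithelial targets, mesenchymal genes were found higher in either line.

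**Figure D4:**
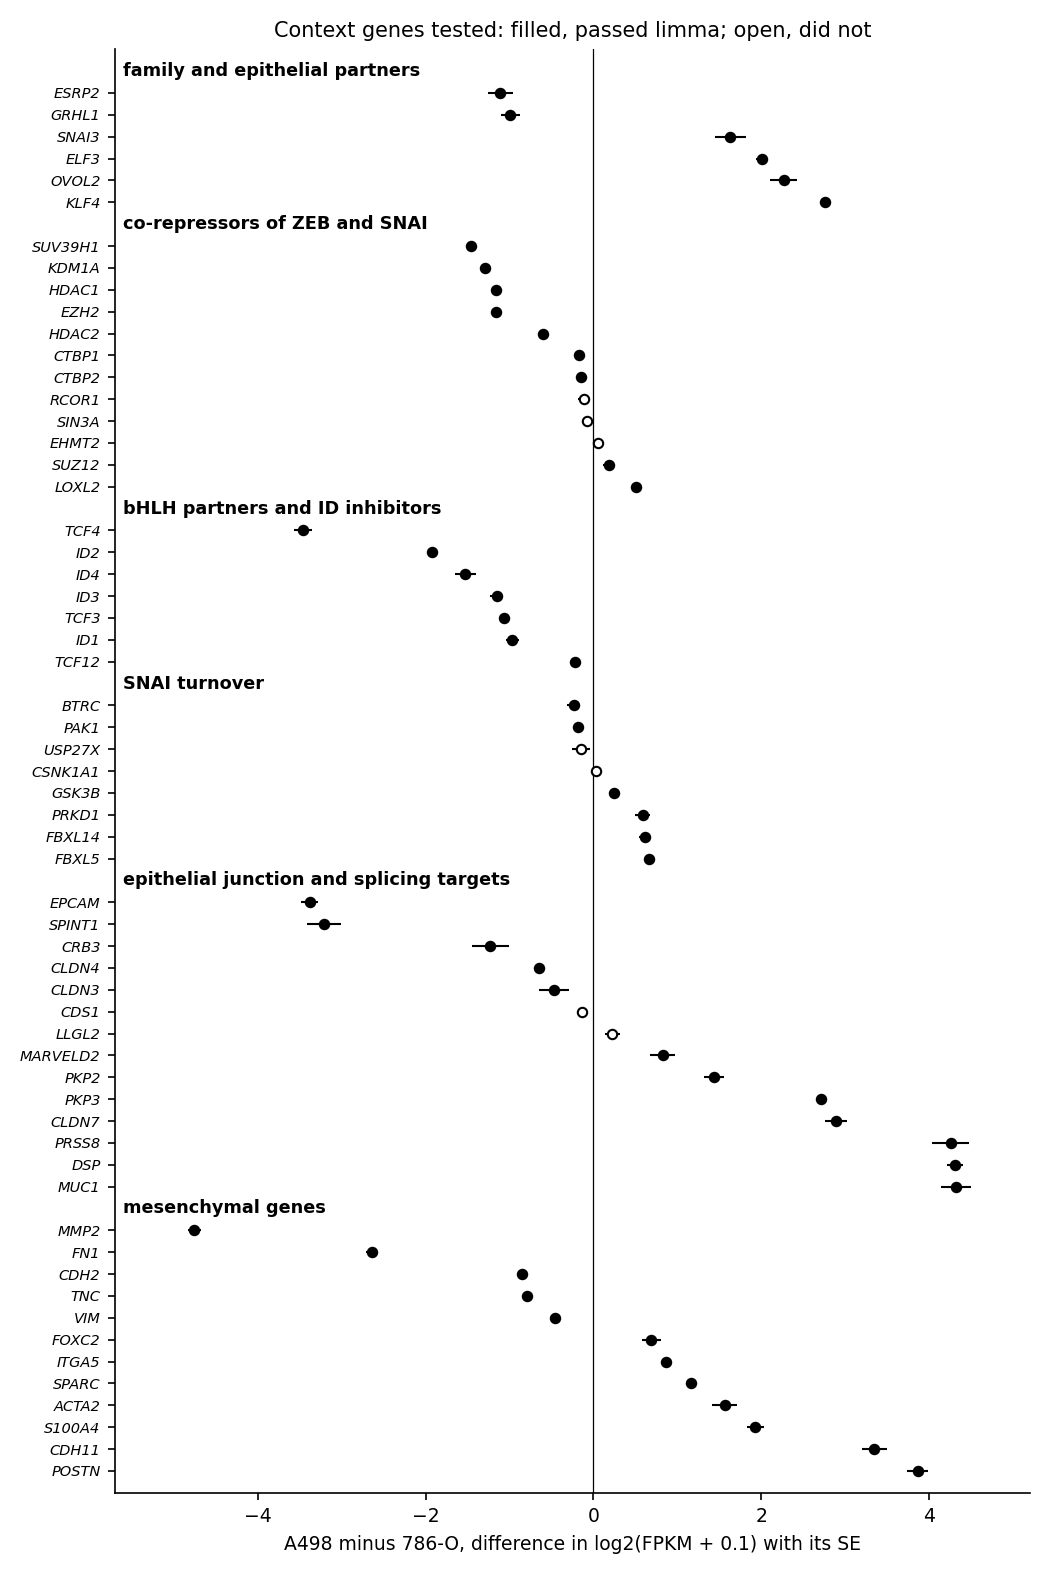
Difference in log2(FPKM + 0.1), A498 minus 786-O (horizontal axis), with its SE for the 59 tested genes of the 6 lists, where filled points passed limma and open points did not. All 7 bHLH partners and ID genes lie left of 0 (higher in 786-O), whereas the epithelial and mesenchymal lists spread to both sides, from -4.75 (MMP2) to 4.33 (MUC1).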

How the data were processed

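Total RNA of 8 libraries was sequenced as single-end 36 bp reads by the authors (TruSeq, no strand mark). The submitters' processing notes name TopHat2 2.0.0 and Cufflinks 2.0.2, with hg19. The deposited values are FPKM computed by Cufflinks in each library alone, with a 95% interval; no counts were used. NM entries (35951 of 75378 per file; 97.7% matched a current symbol in a RefSeq table) were summed per symbol, and genes with a mean of at least 0.1 FPKM were tested. The short-gene filter (a span under 200 bp) removed no gene. limma 3.58.1 (R 4.3.3) was fitted to log2(FPKM + 0.1) over the 4 groups, with a variance trend and Benjamini-Hochberg adjustment at 0.05 over 13161 genes. The added 0.1 FPKM understates changes of low genes. Of the genes below the filter, GRHL2 and ESRP1 were compared by exact permutation tests, and the others were not tested. Reads were derived from the Cufflinks intervals, and depth from intronless genes. The code was tested on simulated data. Python 3.11.15, numpy 2.4.6, pandas 2.3.3, scipy 1.17.1 and matplotlib 3.10.9 were used.

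The genes and lists were chosen with earlier results of these data known. All 9 factors were named, and for each list the 4 called genes with the largest difference and no overlap between lines, with CDH1 and VIM. The nearest genes by Pearson r were named for the 3 tested factors with the largest difference between lines. Alternatives covered the pseudocount, the filter, scaling, single entries, each library left out, a replicate block and, added later, NR entries. Promoters came from RefSeq (GRCh38.p14); hg19 coordinates are those of the files, counted from 1.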

Additional observations from a re-analysis of the deposited data

How the results depend on the processing

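SNAI1 stayed higher in A498 (log2 difference 1.75 to 1.97) and SNAI2 in 786-O (-1.41 to -1.25) under all 19 alternatives run. Some of these cannot move the log2 difference of either gene. They are the changes of filter, the short-gene filter, the highest entry, the replicate block and the NR entries. ZEB2 crossed from 0.03 to -0.64 (adjusted p = 0.000166 by limma) when its NR entry was added, since that entry was higher in 786-O. No call of the 4 factors changed otherwise in 351 alternative values of 20 results, where 31 values that passed no test changed sign. ZEB2 had 1 value fewer in each comparison, as it lies under a filter of 1 FPKM.

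Counts of genes called for the knockdown were small and unstable, and the cause was not tested. They were 0 over both lines, 1 within A498, 0 within 786-O and 1 for the difference between lines. With 0.01 FPKM added they were 2 over both lines, 7 within 786-O and 3 for the difference, and with 1 FPKM added 0 within A498 and 0 for the difference. Without a filter they were, in the same order, 4, 5, 2 and 4, with the highest entry per gene 9, 9, 6 and 7, and with NR entries added 24, 18, 12 and 28. A filter of 1 FPKM gave 1 over both lines, and a fit on A498 alone gave 5 within A498. Leaving out each library in turn gave 0 to 9 over both lines (9 without 786-O siRNA #2), 1 to 17 within A498 (17 without A498 siRNA #1), 0 to 6 within 786-O (6 without NTC 2 or siRNA #1 of 786-O) and 1 to 9 for the difference (9 without A498 siRNA #1). A group left with 1 library was assumed to vary like the others. Between the lines the same omissions gave 10256 to 10438 calls.

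Replicate numbers are shared between groups, but nothing says that they mark a shared batch, and deviations of same-numbered libraries correlated at -0.256 to 0.254 over the 6 pairs of groups. With the replicate number as a block, 10653 genes were called between the lines and 0, 1, 0 and 1 for the knockdown, and no call of the 4 factors changed. Depth limited the 5 genes near 0, where 3 reads are worth up to 0.171 FPKM (the shorter TWIST2 entry). Of the counts in each direction for the 6 gene lists, those of the co-repressors and of SNAI turnover moved by over 1.5 times as given with them, and a filter of 1 FPKM left 2 and 0 of the relatives and epithelial partners higher in A498 and 786-O.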
